A study of Homo sapiens with 8 samples.

Results

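The genes described here are a list of 46 genes of the hypoxia response and of glycolysis, chosen by name. Of these, 42 had a named transcript cluster (a group of probes that reports 1 gene) on the arrays, out of 17709 named clusters in all, and each of the 42 had a single cluster. CA9, PFKFB4, SLC16A3 and LOXL2 had no named cluster and were not analysed here, so acid export is represented by CA12 alone. The values come from 8 xenografts of SK-OV-3, an established ovarian carcinoma line, grown in nude mice, which lack T cells but keep other host cells. In 4 tumours the cells carried pIND_BORA for overexpression of BORA, the partner of the kinase Aurora A at the start of mitosis. In the other 4 they carried the empty vector pIND_EV (EV). Total RNA of each tumour was hybridised to 1 Affymetrix array, and the values are log2 signals, on which a difference of 1 is a 2-fold difference. The labels give no age, time of growth, dose or inducer. Nothing in them ties a tumour to its own mouse or cell pool, so the spread behind each p-value may be technical.

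Cells sense oxygen through the prolyl hydroxylases of the EGLN family, which mark the alpha subunits HIF1A and EPAS1 (HIF-2 alpha) for destruction through VHL. When oxygen is low the alpha subunits persist, pair with ARNT and bind a short DNA core near genes for glucose uptake, glycolysis, lactate production, mitophagy, vessel growth and matrix modification. Control of HIF1A is mainly at the protein, so its transcript is not a measure of its activity. In solid tumours this programme is known to follow local oxygen supply, and glycolytic genes are also used by well-oxygenated tumour cells.

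BORA transcript was at 12.57, 12.55, 12.91 and 13.00 in BORA replicates 1 to 4, against 6.16, 6.15, 6.89 and 7.32 in EV replicates 1 to 4, which matches the labels (limma adjusted p = 2.38e-05; two-sided exact permutation p = 0.0286, the smallest that 70 splits allow). All EV values lay below the negative control level of their arrays (the 95th percentile of the negative control rows), so BORA was at least 27.0-fold higher in BORA tumours, with EV tumours set at that level. EV replicate 1 stood apart: over all clusters it correlated with the other tumours at 0.943 to 0.954, while the other 7 arrays lay between 0.981 and 0.992 with each other. All 10 measured markers of squamous epithelium were highest there, with a mean level of 13.31, against 5.36 to 6.05 in the other 7 tumours. The 6 measured markers of ovarian carcinoma averaged 12.62 there, against 13.25 to 14.03 in the other 7. Of these PAX8, EPCAM, KRT8 and KRT18 were lowest there. MUC1 was lowest in EV replicate 4, and CD24 was at 14.55 in EV replicate 1, above all tumours but EV replicate 4. BORA replicate 1, the other tumour that matters below, did not stand apart over all clusters (0.982 to 0.989 with the other 6 once EV replicate 1 is set aside). Each comparison is therefore given over 8 tumours, without EV replicate 1 and without BORA replicate 1. The labels name no step that separates mouse from tumour RNA, and in whole tumours fewer cells of a type and less RNA per cell cannot be told apart.

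The HIF complex binds the core ACGTG or GCGTG. Promoters of 7 genes on the list are shown, genes that lay far down in BORA replicate 1 beside genes that varied least. The first 5 are not a ranking by range: P4HA2 (range 2.84, 0 matches) and CA12 (range 2.52, a match) varied more than DDIT4 (2.43) and BNIP3 (2.14). The first 5 are, among the genes with a single RefSeq promoter entry (GRCh38.p14), those that lay furthest below the other BORA tumours in BORA replicate 1. The last pair, PKM and GAPDH, varied least over the 8 tumours. Each sequence runs 5′ to 3′ over the 250 bases before the annotated start, and capitals mark ACGTG or GCGTG on either strand (CACGT and CACGC are their reverse complements). In CACGTG, 2 such matches overlap.
ADM (chr11:10304823-10305072, plus strand): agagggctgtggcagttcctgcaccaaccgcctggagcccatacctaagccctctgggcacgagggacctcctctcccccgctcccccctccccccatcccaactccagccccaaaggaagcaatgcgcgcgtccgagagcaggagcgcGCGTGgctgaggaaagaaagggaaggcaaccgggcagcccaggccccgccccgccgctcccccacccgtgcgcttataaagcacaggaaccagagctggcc
EGLN3 (chr14:33951075-33951324, minus strand): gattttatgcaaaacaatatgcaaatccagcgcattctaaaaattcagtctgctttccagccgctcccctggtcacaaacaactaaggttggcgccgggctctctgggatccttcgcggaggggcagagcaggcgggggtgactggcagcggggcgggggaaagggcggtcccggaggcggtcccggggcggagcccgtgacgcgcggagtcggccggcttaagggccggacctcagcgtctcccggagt
P4HA1 (chr10:73096867-73097116, minus strand): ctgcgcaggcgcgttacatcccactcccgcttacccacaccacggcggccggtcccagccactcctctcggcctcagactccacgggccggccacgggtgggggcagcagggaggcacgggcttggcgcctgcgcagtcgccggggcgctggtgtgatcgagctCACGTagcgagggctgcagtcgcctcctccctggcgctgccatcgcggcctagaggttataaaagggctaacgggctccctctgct
DDIT4 (chr10:72273674-72273923, plus strand): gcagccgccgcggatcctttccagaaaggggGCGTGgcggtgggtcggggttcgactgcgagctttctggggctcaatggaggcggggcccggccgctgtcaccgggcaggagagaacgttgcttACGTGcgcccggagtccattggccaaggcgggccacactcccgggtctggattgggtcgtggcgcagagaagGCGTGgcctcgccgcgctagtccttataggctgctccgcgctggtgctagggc
BNIP3 (chr10:131981924-131982173, minus strand): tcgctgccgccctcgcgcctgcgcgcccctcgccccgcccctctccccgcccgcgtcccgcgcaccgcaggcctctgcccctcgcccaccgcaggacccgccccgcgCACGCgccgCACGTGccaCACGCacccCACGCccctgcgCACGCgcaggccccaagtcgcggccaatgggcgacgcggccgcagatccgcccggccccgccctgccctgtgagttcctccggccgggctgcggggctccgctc
PKM (chr15:72231191-72231440, minus strand): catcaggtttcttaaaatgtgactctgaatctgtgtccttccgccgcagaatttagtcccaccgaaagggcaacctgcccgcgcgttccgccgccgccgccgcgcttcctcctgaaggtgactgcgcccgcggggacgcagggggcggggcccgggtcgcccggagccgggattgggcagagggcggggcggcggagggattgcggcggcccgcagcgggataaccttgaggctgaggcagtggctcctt
GAPDH (chr12:6535014-6535263, plus strand): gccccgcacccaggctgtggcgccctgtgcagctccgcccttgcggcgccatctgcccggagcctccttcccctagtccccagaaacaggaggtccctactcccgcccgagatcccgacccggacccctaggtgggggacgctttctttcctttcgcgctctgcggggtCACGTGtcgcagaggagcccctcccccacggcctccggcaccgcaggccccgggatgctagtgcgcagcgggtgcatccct
BNIP3 held 6 matches in 5 separate runs, DDIT4 held 3, and ADM and P4HA1 held 1 each. EGLN3 had 0 in this window, although it lay low in the same tumour as ADM, and GAPDH, one of the steadiest genes, held 1 CACGTG. Of the 46 listed genes 40 had an entry, with 69 entries in all, and 48 of these (69.6%) held a match, against 15172 of all 35116 entries (43.2%). A match describes letters in this window and is no evidence of binding.

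None of the 42 genes differed between BORA and EV tumours past the threshold. In limma, 0 rose and 0 fell at an adjusted p under 0.05, where 0.102% of all clusters rose and 0% fell. At an unadjusted p under 0.05, 3 were higher (EPAS1, TPI1 and PDK3) and 0 lower, 7.14% and 0% of the list, where 7.37% of all clusters were higher and 7.17% lower. No gene of the list had all BORA tumours above all EV tumours (0 of 42, against 4.45% of all clusters) or all below (0 of 42, against 4.91%). The median log2 difference of the list was 0.086, with 27 genes above 0 and 15 below. A class of 6861 brighter clusters, above the negative control level in both groups, holds 39 of the 42 genes. At an unadjusted p under 0.05 in limma, 10.6% of this class were higher and 2.68% lower. All BORA tumours lay above all EV tumours at 6.37% of the class and below them at 1.68%. The median was -0.026 over all clusters and 0.10 over the brighter class. The share above 0 was 64.3% for the list, 46.6% for all clusters and 63.8% for the brighter class. The 95% interval of the difference stayed within a 2-fold change in either direction for 20 genes, so for the other 22 a change of that size is not excluded by these tumours.

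The spread between tumours of 1 group was wide at these genes. All 42 genes were lower in BORA replicate 1 than the mean of BORA replicates 2 to 4, where 47.9% of all clusters were. The gap exceeded 1 log2 unit for 21 of the 42 genes, which is 50%, against 0.977% of all clusters and 1.75% of the brighter class. It exceeded 2 log2 units for 8 genes, or 19%, against 0.198% of all clusters. HK2, among these 8, and ENO2 and ANKRD37, among the 21, lay below the negative control level in BORA replicate 1, so the size of their gaps is uncertain. BORA replicate 1 was the lowest of the 8 tumours at 29 of 42 genes (69%), where it was lowest at 13.8% of all clusters and 8.31% of the brighter class. The median SD within BORA tumours was 0.56 for these genes and 0.24 for all clusters, and among BORA replicates 2 to 4 it was 0.23 for these genes and 0.22 for all clusters. BORA replicates 2 to 4 thus lay about as close to each other at these genes as at all clusters, with BORA replicate 1 below them.

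**Figure D1:**
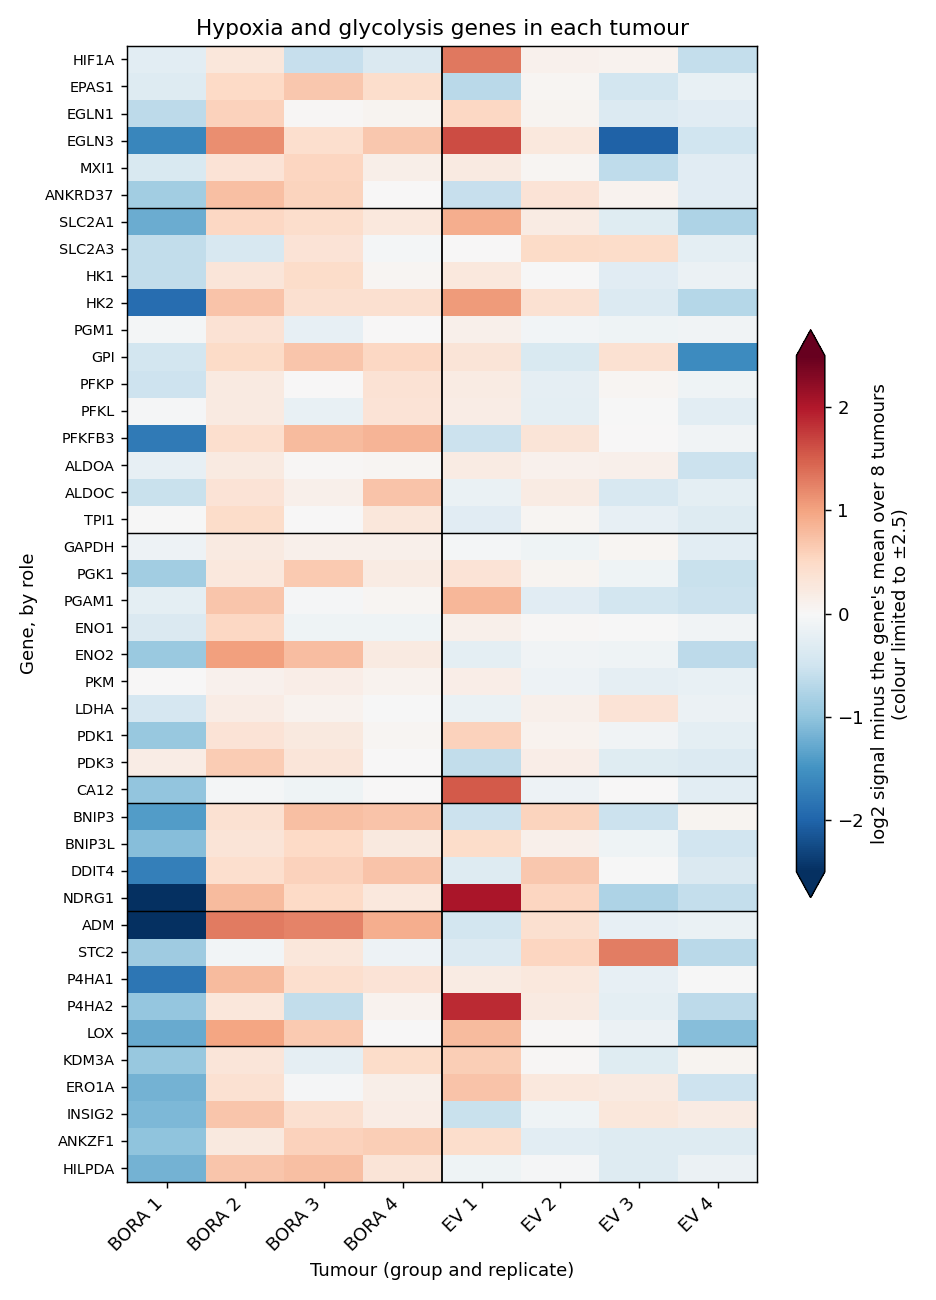
Colour shows the log2 signal of each of the 42 genes (rows, by role, with lines between roles) in each tumour (columns, BORA left of EV) minus the gene's mean over the 8 tumours. The column of BORA replicate 1 is blue for most genes, with ADM and NDRG1 darkest, while EV replicate 1 is red for NDRG1, P4HA2, EGLN3, CA12 and HIF1A.

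Averaged over the 42 genes, BORA replicates 1 to 4 lay at -0.88, 0.45, 0.29 and 0.25 from the gene means, against 0.29, 0.11, -0.15 and -0.36 for EV replicates 1 to 4. The BORA values thus enclosed all EV values, BORA replicate 1 lying below every EV tumour and BORA replicate 2 above every EV tumour. The same average over all clusters was between -0.0065 and 0.012 in every tumour. Levels of markers of tumour and host cell types in BORA replicate 1 were as follows. The arrays are of a human design and the host is a mouse. How far the probes report mouse transcripts was not tested, so these levels do not measure host cell content. The 6 measured carcinoma markers (of 7) averaged 13.66 there, against 13.58 to 13.88 in BORA replicates 2 to 4 and 12.62 to 14.03 in EV tumours. The 5 endothelial markers, none above the negative control level in both groups, averaged 5.88 there, against 5.67 to 6.10 in BORA replicates 2 to 4 and 5.05 to 5.74 in EV tumours. Of these VWF, KDR and TEK lay below that level in all tumours. PECAM1 and CDH5 lay below it in all EV tumours and were higher in every BORA tumour. In BORA replicate 1 PECAM1 was at 7.86 and CDH5 at 8.30, its highest value. The 4 measured fibroblast markers (of 5) averaged 7.91 there, against 7.68 to 8.28 in BORA replicates 2 to 4 and 6.74 to 8.30 in EV tumours. The 7 leukocyte markers, of which 2 lay above the negative control level in both groups, averaged 7.12 there, below the 7.36 to 7.58 of BORA replicates 2 to 4 and inside the 6.996 to 8.20 of EV tumours. Of the leukocyte markers 4 of 7 (CD68, CD14, LYZ and CD163) were lowest of all 8 tumours in BORA replicate 1, as were 5 of 10 squamous, 2 of 5 endothelial, 0 of 6 carcinoma and 0 of 4 fibroblast markers. The 5 squamous markers lay below the negative control level in all tumours but EV replicate 1, so their order in the others rests on dim signals. The 2 endothelial markers, KDR and TEK, were dim in all tumours. CD68, a macrophage gene, was the one of the 4 leukocyte markers above the negative control level in all tumours. It was at 9.9995 in BORA replicate 1, against 10.74 to 11.31 in BORA replicates 2 to 4 and 10.17 to 10.73 in EV tumours. PTPRC, the pan-leukocyte marker, was at 10.83 in BORA replicate 1, against 9.68 to 10.96 in BORA replicates 2 to 4. In EV replicates 1 to 4 it was at 6.91, 12.19, 12.24 and 12.94. The part of these cell types in the result was not tested.

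The sensors and factors of the pathway come first. EPAS1, the HIF-2 alpha subunit, had signals of 12.05, 12.87, 13.06 and 12.82 in BORA replicates 1 to 4, against 11.70, 12.43, 11.91 and 12.19 in EV replicates 1 to 4. Replicate 1 was the low tumour in both groups, and BORA replicate 1 lay inside the EV range while BORA replicates 2 to 4 lay above it. Its log2 difference was 0.64 (SE 0.25, limma adjusted p = 0.294), and 0.86 without BORA replicate 1 (adjusted p = 0.257). HIF1A, the HIF-1 alpha subunit, was at 15.76, 16.31, 15.44 and 15.66 in BORA replicates 1 to 4, against 17.34, 16.12, 16.10 and 15.43 in EV replicates 1 to 4. It was highest in EV replicate 1, the tumour with squamous markers, and the other 7 tumours overlapped. The difference was -0.46 (SE 0.37, limma adjusted p = 0.585) over 8 tumours and -0.09 without EV replicate 1. At HIF1A, more than at any other gene of the list, BORA replicate 1 lay close to its group, -0.04 from the mean of BORA replicates 2 to 4.

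EGLN3, the oxygen-sensing hydroxylase that is itself a classical HIF target, was chosen for its range after its values were seen. It had signals of 9.68, 12.48, 11.73 and 11.996 in BORA replicates 1 to 4, against 12.94, 11.57, 9.30 and 10.81 in EV replicates 1 to 4. The groups overlapped, with EV replicate 3 and BORA replicate 1 lowest and EV replicate 1 highest. Its difference was 0.32 (SE 0.78, limma adjusted p = 0.873) over 8 tumours. EGLN1, the main hydroxylase, spanned 1.23 log2 units and differed by 0.02. MXI1, an antagonist of MYC, was at 12.70, 13.42, 13.61 and 13.21 in BORA replicates 1 to 4, against 13.29, 13.11, 12.44 and 12.79 in EV replicates 1 to 4, with EV replicate 3 lowest and BORA replicates 2 and 3 highest (difference 0.33, SE 0.24, limma adjusted p = 0.557). ANKRD37, a hypoxia-induced ankyrin repeat gene, differed by 0.22 and was lowest in BORA replicate 1, where it lay below the negative control level, as it did in EV replicate 1.

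**Figure D2:**
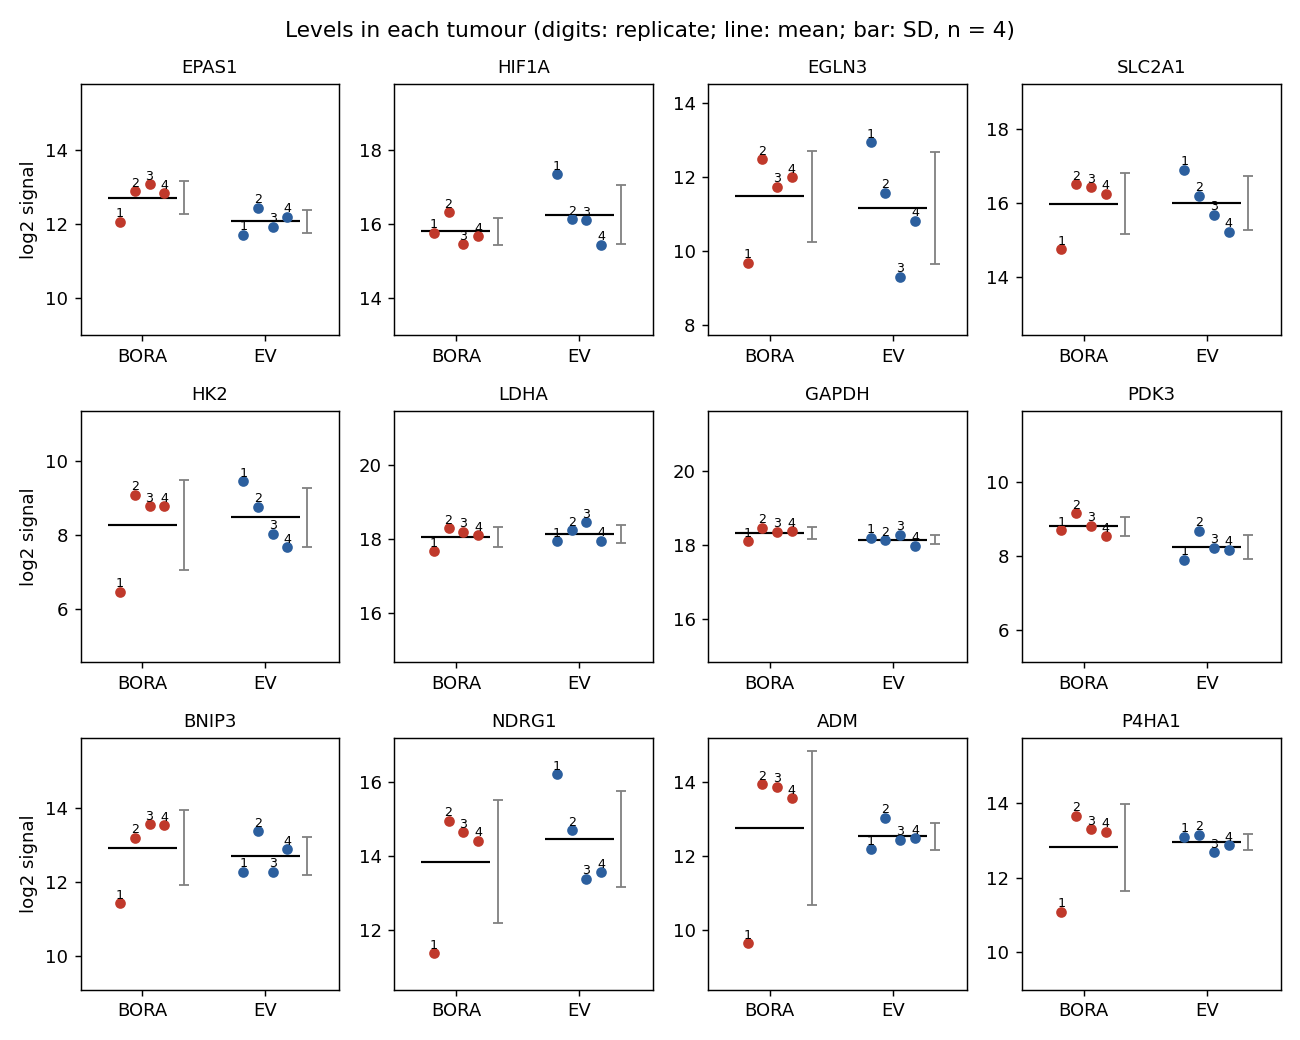
Log2 signal of 12 genes in each tumour (points, with the replicate number above each), BORA left of EV, with the mean as a line and the SD as a bar (n = 4 each). Every panel spans the same number of log2 units, so that ADM, NDRG1, EGLN3 and HK2 can be seen to vary far more than GAPDH and LDHA, and BORA replicate 1 is the lowest point in the panels of ADM, NDRG1, HK2, BNIP3, P4HA1, SLC2A1 and LDHA.

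Glucose uptake and the steps that prepare glucose for cleavage showed a contrast between steady and variable genes. SLC2A1, the glucose transporter GLUT1, was at 14.76, 16.52, 16.43 and 16.26 in BORA replicates 1 to 4, against 16.91, 16.21, 15.69 and 15.23 in EV replicates 1 to 4. The lowest tumour was BORA replicate 1 and the highest EV replicate 1, and the difference was -0.02 (SE 0.45, limma adjusted p = 0.990). SLC2A3, the transporter GLUT3, was at 4.29, 4.51, 5.25 and 4.85 in BORA replicates 1 to 4, against 4.92, 5.39, 5.37 and 4.67 in EV replicates 1 to 4, below the negative control level in both groups, so its difference of -0.36 (SE 0.25, limma adjusted p = 0.522) rests on dim signals. HK2, the inducible hexokinase, was chosen after its values were seen and was at 6.47, 9.10, 8.78 and 8.79 in BORA replicates 1 to 4, against 9.46, 8.77, 8.04 and 7.68 in EV replicates 1 to 4. The value of BORA replicate 1 did not reach the negative control level of its array (7.87), nor did that of EV replicate 4 (7.82). As printed, BORA replicate 1 was 5.34-fold below the mean of BORA replicates 2 to 4, but with so dim a signal the size of the gap is uncertain. HK1, the constitutive hexokinase, was -0.88 log2 units from that mean in the same tumour.

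GPI, which converts glucose phosphate to fructose phosphate, was at 12.43, 13.36, 13.57 and 13.40 in BORA replicates 1 to 4, against 13.19, 12.49, 13.27 and 11.30 in EV replicates 1 to 4. EV replicate 4 was lowest, well apart from the next tumour, and the difference was 0.63 (SE 0.43, limma adjusted p = 0.523) with a 95% interval of -0.34 to 1.598. PFKFB3, which makes an activator of phosphofructokinase, was at 9.52, 11.72, 12.09 and 12.14 in BORA replicates 1 to 4, against 10.75, 11.61, 11.31 and 11.21 in EV replicates 1 to 4. The EV tumours lay between BORA replicate 1 and the other BORA tumours. Its difference was 0.15 over 8 tumours and 0.76 without BORA replicate 1 (limma adjusted p = 0.324). TPI1, the isomerase of the triose phosphates, was at 13.43, 13.91, 13.46 and 13.74 in BORA replicates 1 to 4, against 13.17, 13.49, 13.25 and 13.12 in EV replicates 1 to 4. It varied little, with EV replicate 4 lowest and BORA replicate 2 highest, and only BORA replicate 1 and BORA replicate 3 fell inside the EV range (difference 0.38, SE 0.16, limma adjusted p = 0.334). The other enzymes of these steps, PGM1, PFKP, PFKL, ALDOA and ALDOC, had differences of 0.06, 0.03, 0.17, 0.05 and 0.31, and none spanned more than 1.27 log2 units.

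The steps that yield ATP and lactate held the steadiest genes of the list, PKM and GAPDH. PKM, pyruvate kinase, was at 16.38, 16.48, 16.53 and 16.46 in BORA replicates 1 to 4, against 16.53, 16.25, 16.15 and 16.19 in EV replicates 1 to 4. Its range of 0.38 was the smallest of the 42 genes, and the groups overlapped through EV replicate 1 alone (difference 0.18, SE 0.14, limma adjusted p = 0.561). LDHA, which turns pyruvate into lactate, was at 17.67, 18.28, 18.18 and 18.09 in BORA replicates 1 to 4, against 17.93, 18.22, 18.44 and 17.95 in EV replicates 1 to 4. Here BORA replicate 1 was lowest and EV replicate 3 highest, and the difference was -0.08 (SE 0.19, limma adjusted p = 0.862) with a 95% interval of -0.50 to 0.34, within a 2-fold change. GAPDH, which oxidises the triose phosphate and is often used as a reference transcript, was at 18.11, 18.47, 18.36 and 18.37 in BORA replicates 1 to 4, against 18.20, 18.14, 18.29 and 17.99 in EV replicates 1 to 4. EV replicate 4 was lowest, BORA replicates 2 to 4 were highest, and the difference was 0.18 (SE 0.14, limma adjusted p = 0.584). ENO1, the main enolase, spanned 0.88 log2 units and differed by -0.03. The signals of GAPDH, ENO1 and LDHA lay between 17.67 and 18.56 in every tumour, near the highest value of the table (19.8), and the part of saturation in their narrow ranges was not tested.

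PGK1 and PGAM1, the next enzymes of the payoff phase, spanned 1.52 and 1.37 log2 units. PGAM1 was highest in EV replicate 1 and differed by 0.22 over 8 tumours and 0.54 without it (limma adjusted p = 0.282). ENO2, the neuronal enolase, was at 5.12, 7.09, 6.82 and 6.29 in BORA replicates 1 to 4, against 5.82, 5.96, 5.95 and 5.40 in EV replicates 1 to 4, all below the negative control level. BORA replicates 2 to 4 lay above all EV tumours and BORA replicate 1 below them (difference 0.55, SE 0.38, limma adjusted p = 0.526). PDK3, a kinase that holds pyruvate dehydrogenase off, was at 8.71, 9.16, 8.83 and 8.54 in BORA replicates 1 to 4, against 7.91, 8.69, 8.23 and 8.18 in EV replicates 1 to 4. It had the smallest unadjusted p of the list, 0.0215, with EV replicate 1 lowest and below the negative control level, and EV replicate 2 inside the BORA range (difference 0.56, SE 0.20, limma adjusted p = 0.281). PDK1, the kinase of the same family best known as a HIF target, was lowest in BORA replicate 1 (10.84) and highest in EV replicate 1 (12.36), with a difference of -0.16.

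CA12, a membrane carbonic anhydrase that helps export acid, was at 14.11, 15.03, 14.99 and 15.10 in BORA replicates 1 to 4, against 16.62, 14.96, 15.10 and 14.82 in EV replicates 1 to 4. Again BORA replicate 1 was lowest and EV replicate 1 highest, each set off from the rest of its group, and the other 6 tumours lay between 14.82 and 15.10. The difference was -0.57 (SE 0.40, limma adjusted p = 0.532) over 8 tumours, -0.15 without EV replicate 1 and -0.34 without BORA replicate 1.

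Genes of mitophagy and stress held some of the widest ranges. BNIP3, a mitophagy receptor, was at 11.43, 13.21, 13.57 and 13.54 in BORA replicates 1 to 4, against 12.29, 13.37, 12.29 and 12.89 in EV replicates 1 to 4. BORA replicate 1 lay below every EV tumour, 4.03-fold under the mean of BORA replicates 2 to 4, and those 3 overlapped with EV replicate 2 (difference 0.23, SE 0.47, limma adjusted p = 0.844). BNIP3L, its paralogue, was at 13.82, 15.21, 15.38 and 15.14 in BORA replicates 1 to 4, against 15.35, 15.01, 14.79 and 14.42 in EV replicates 1 to 4, again with BORA replicate 1 lowest and set off from the rest (difference -0.01, SE 0.35, limma adjusted p = 0.994). NDRG1, a stress-responsive gene widely used as a hypoxia marker, was at 11.39, 14.96, 14.66 and 14.43 in BORA replicates 1 to 4, against 16.21, 14.70, 13.39 and 13.57 in EV replicates 1 to 4. Its range of 4.83 was the largest of the list and ran from BORA replicate 1 to EV replicate 1. The difference was -0.61 (SE 0.84, limma adjusted p = 0.760), -0.03 without EV replicate 1 and 0.21 without BORA replicate 1, so its sign follows which of these tumours is kept. DDIT4, which restrains mTOR signalling, was at 11.64, 13.77, 13.92 and 14.06 in BORA replicates 1 to 4, against 13.02, 14.02, 13.34 and 12.98 in EV replicates 1 to 4. Apart from BORA replicate 1, 4.85-fold under the mean of the other BORA tumours, the groups overlapped only through EV replicate 2 (difference 0.01, SE 0.51, limma adjusted p = 0.998).

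Among secreted and matrix-modifying genes, ADM showed the pattern most sharply. ADM, which encodes the vasodilator peptide adrenomedullin, was chosen after its values were seen and was at 9.65, 13.94, 13.88 and 13.56 in BORA replicates 1 to 4, against 12.18, 13.04, 12.45 and 12.48 in EV replicates 1 to 4. BORA replicates 2 to 4 all lay above the EV tumours, whereas BORA replicate 1 lay below the lowest of them, 17.7-fold under the mean of the other BORA tumours. Its difference was 0.22 (SE 0.84, limma adjusted p = 0.922) over 8 tumours, with a 95% interval of -1.67 to 2.11. Without BORA replicate 1 it was 1.26 (SE 0.23, limma adjusted p = 0.174), still not past the threshold. P4HA1, an alpha subunit of the hydroxylase that stabilises collagen, was at 11.07, 13.67, 13.30 and 13.23 in BORA replicates 1 to 4, against 13.10, 13.15, 12.69 and 12.88 in EV replicates 1 to 4. All EV tumours lay between BORA replicate 1, 5.03-fold under the mean of the other BORA tumours, and those tumours (difference -0.14, SE 0.49, limma adjusted p = 0.916).

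P4HA2, the other alpha subunit of that enzyme, was at 11.51, 12.76, 11.85 and 12.56 in BORA replicates 1 to 4, against 14.34, 12.70, 12.23 and 11.82 in EV replicates 1 to 4. EV replicate 1 was highest and well apart from the others (difference -0.61, SE 0.51, limma adjusted p = 0.601, and -0.08 without that tumour). LOX, which crosslinks collagen, was at 8.20, 10.44, 10.11 and 9.46 in BORA replicates 1 to 4, against 10.26, 9.49, 9.32 and 8.39 in EV replicates 1 to 4, with BORA replicate 1 and EV replicate 4 lowest and the groups overlapping (difference 0.19, SE 0.51, limma adjusted p = 0.884). STC2, a secreted glycoprotein, was at 6.52, 7.35, 7.68 and 7.28 in BORA replicates 1 to 4, against 7.07, 7.94, 8.69 and 6.74 in EV replicates 1 to 4. Only BORA replicate 3 and EV replicate 3 lay above the negative control level, and EV replicate 3 was highest (difference -0.40, SE 0.42, limma adjusted p = 0.674).

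Genes of chromatin, the endoplasmic reticulum and lipid storage, 5 in number, were all lowest in BORA replicate 1, each by more than 1 log2 unit against the mean of BORA replicates 2 to 4. KDM3A, a histone demethylase, was at 8.77, 10.03, 9.50 and 10.18 in BORA replicates 1 to 4, against 10.34, 9.75, 9.41 and 9.80 in EV replicates 1 to 4 (difference -0.21, SE 0.32, limma adjusted p = 0.786). ERO1A, which drives disulphide formation, was at 13.30, 14.86, 14.45 and 14.62 in BORA replicates 1 to 4, against 15.20, 14.74, 14.70 and 13.96 in EV replicates 1 to 4 (difference -0.34, SE 0.36, limma adjusted p = 0.681). In both genes EV replicate 1 was highest and the groups overlapped. HILPDA, a lipid droplet protein, was at 7.95, 9.82, 9.88 and 9.44 in BORA replicates 1 to 4, against 9.03, 9.10, 8.81 and 8.99 in EV replicates 1 to 4. Its EV tumours lay between 8.81 and 9.10, BORA replicates 2 to 4 lay above them and BORA replicate 1 below (difference 0.29, SE 0.38, limma adjusted p = 0.745, and 0.73 without BORA replicate 1, adjusted p = 0.250). INSIG2, which holds back sterol synthesis, and ANKZF1, a quality-control factor, differed by 0.08 and 0.23.

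**Figure D3:**
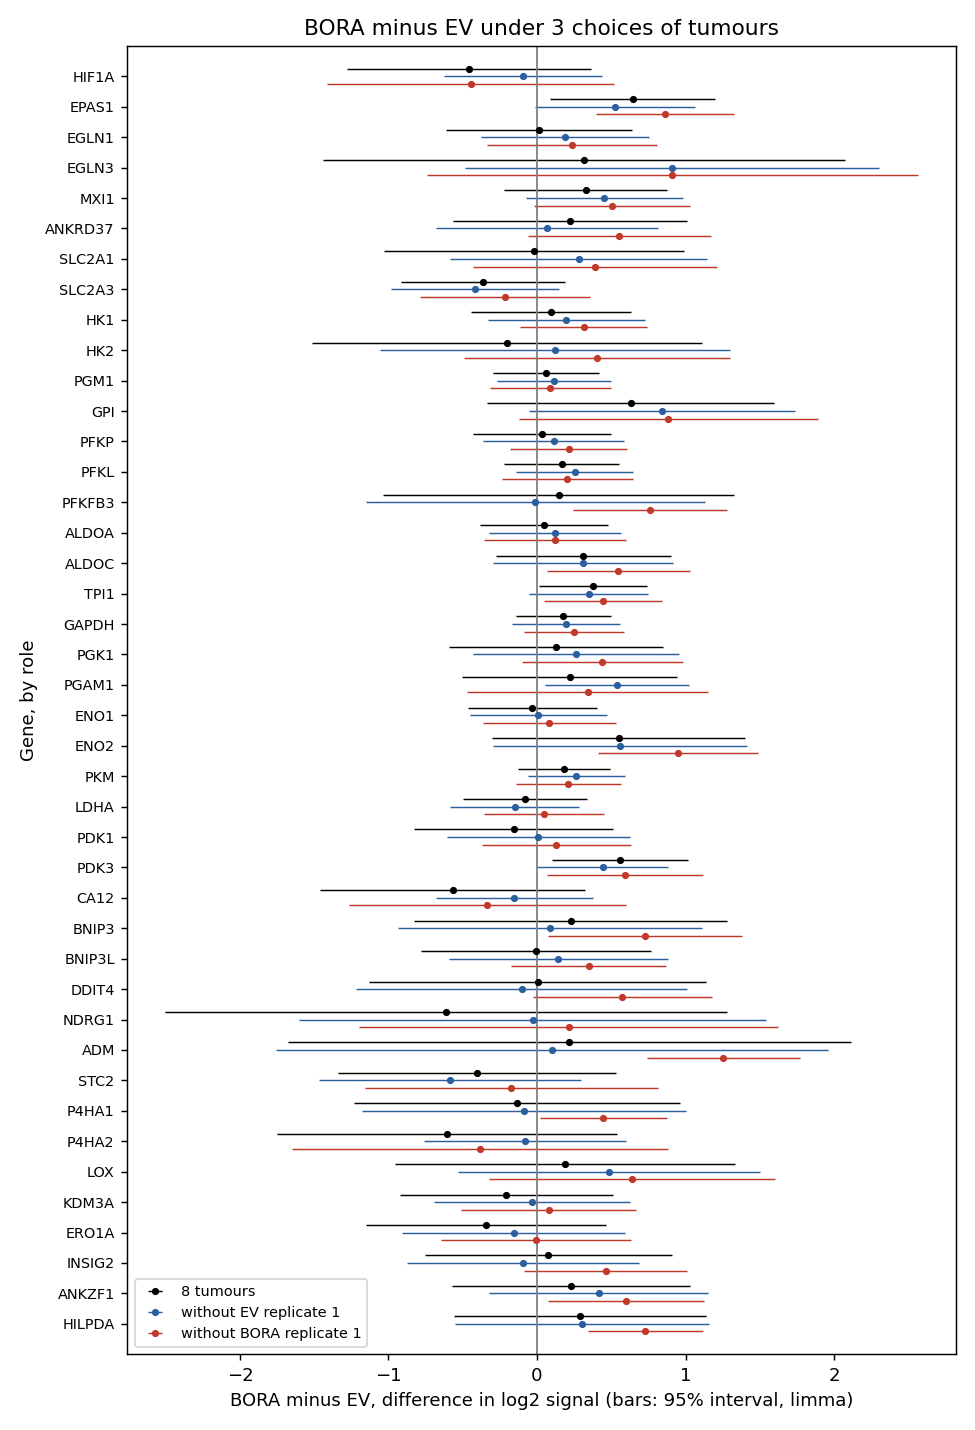
BORA minus EV difference in log2 signal for each of the 42 genes (points) with its 95% interval from limma (bars), over 8 tumours, without EV replicate 1 and without BORA replicate 1. The intervals over 8 tumours include 0 for all but EPAS1, TPI1 and PDK3, and leaving out BORA replicate 1 moves most points to the right and shortens the bars of ADM, PFKFB3 and HILPDA.

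Leaving out either tumour did not bring any gene past the threshold. Without EV replicate 1, 0 rose and 0 fell, where 0.435% and 0.0791% of all clusters did, and the smallest adjusted p of the list was 0.282. At an unadjusted p under 0.05, PGAM1 and PDK3 were higher and 0 genes lower (4.76% and 0%, against 7.7% and 7.62% of all clusters and 11.1% and 3.41% of the brighter class). The median log2 difference was then 0.12, with 29 genes above 0 (69.0%, against 46.1% of all clusters and 61.3% of the brighter class). PGAM1 and PKM had all BORA tumours above all EV tumours and 0 genes had all below (4.76% and 0%, against 6.66% and 7.68% of all clusters and 9.52% and 3.34% of the brighter class). Without BORA replicate 1, 0 rose and 0 fell, where 0.0226% and 0% of all clusters did, and the smallest adjusted p was 0.174, that of ADM. At an unadjusted p under 0.05, 11 genes were higher and 0 lower (26.2% and 0%, against 5.82% and 4.96% of all clusters and 8.09% and 1.94% of the brighter class). The median log2 difference was 0.37, against -0.031 for all clusters and 0.091 for the brighter class, with 36 genes above 0 (85.7%, against 46.1% of all clusters and 61.9% of the brighter class). EPAS1, GPI, PFKFB3, GAPDH, ENO2, ADM, P4HA1 and HILPDA then lay higher in all BORA than in all EV tumours (8 of 42, or 19.0%, against 6% of all clusters and 8.64% of the brighter class). In turn 0 lay lower in all, against 6.64% of all clusters and 2.49% of the brighter class. BORA replicate 1 was set aside with its low values known, so a shift of the median upward follows from the choice and is given as a description.

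With both tumours left out, BORA replicates 2 to 4 lay above EV replicates 2 to 4 at 18 of 42 genes without overlap (42.9%), against 9.1% of all clusters and 13.4% of the brighter class. They lay below them at 0 of 42, against 10.5% and 5.76%. Here 38 genes were above 0 (90.5%, against 45.3% of all clusters and 58.8% of the brighter class), the median was 0.44 and the largest difference was that of EGLN3 (1.51). Again 0 rose and 0 fell in limma at the threshold, where 0.333% and 0.0508% of all clusters did, while at an unadjusted p under 0.05, 19 genes were higher and 0 lower (45.2% and 0%, against 7.26% and 6.54% of all clusters and 10.7% and 3.69% of the brighter class). ADM had the smallest adjusted p, at a difference of 1.14 (SE 0.21, limma adjusted p = 0.0620). Both tumours were set aside with their values known, BORA replicate 1 lowest of the 8 tumours at 29 of 42 genes and EV replicate 1 highest at 12. An upward shift of the list thus follows from the choice, and these counts are given as a description.

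**Figure D4:**
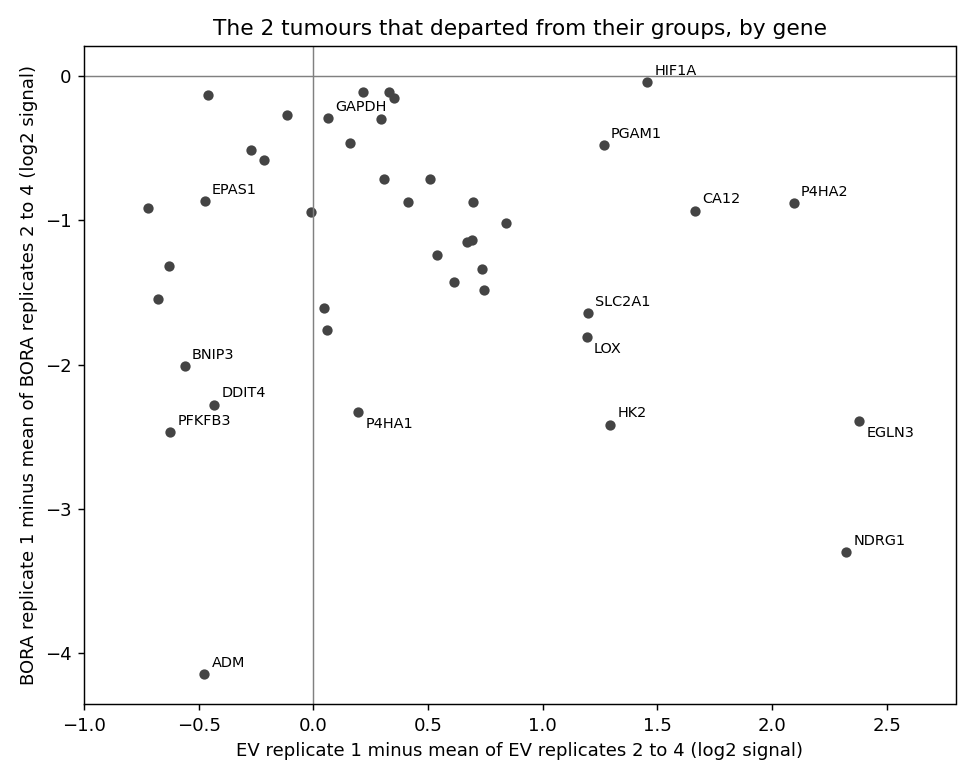
Each point is 1 of the 42 genes. The vertical axis gives BORA replicate 1 minus the mean of BORA replicates 2 to 4 and the horizontal axis EV replicate 1 minus the mean of EV replicates 2 to 4, both in log2 signal. All points lie below 0 on the vertical axis, while on the horizontal axis they spread to both sides, with EGLN3, NDRG1 and P4HA2 furthest to the right and ADM lowest.

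The tumour EV replicate 1 departed from its group in another way than BORA replicate 1. Of the 42 genes, 29 were above the mean of EV replicates 2 to 4 there (69%, against 45.7% of all clusters and 44.3% of the brighter class). The gap exceeded 1 log2 unit for 9 of them (21.4%, against 6.11% of all clusters and 7.2% of the brighter class). More than 1 below were 0 genes, against 6.53% of all clusters and 11.4% of the brighter class. The genes furthest above were EGLN3 (2.38), NDRG1 (2.32), P4HA2 (2.09), CA12 (1.66) and HIF1A (1.46). Others that were far down in BORA replicate 1 lay below that mean in EV replicate 1, where ADM was at -0.48, PFKFB3 at -0.63, BNIP3 at -0.56 and DDIT4 at -0.43. Squamous marker levels moved with this tumour, as given above, and their part in these values was not tested. More than 1 log2 unit low in BORA replicate 1 were 21 of the 42 genes, and 5 of the 9 high in EV replicate 1 were among them. These 5 were EGLN3, NDRG1, HK2, SLC2A1 and LOX. The share of all clusters with both gaps was not counted, so this overlap is given as a description.

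Other genes of the pathway, from a list of 48 of which 41 were measured, showed 0 rises and 0 falls over 8 tumours and in each 7-tumour comparison. Their median log2 difference over 8 tumours was 0.089, and 3 were higher and 4 lower in all BORA than in all EV tumours (7.32% and 9.76%, against 4.45% and 4.91% of all clusters). Of the 4 lower, HK3, PKLR and HIF3A lay below the negative control level in all tumours, so that PFKM is the only one with signal above it. By the rule for named genes the smallest p-values were those of BPGM, P4HB, PFKM and TKT. BPGM, which diverts glycolysis to a regulator of haemoglobin in red cells, was at 8.31, 8.62, 8.07 and 8.22 in BORA replicates 1 to 4, against 7.68, 7.92, 7.96 and 7.66 in EV replicates 1 to 4 (difference 0.50, SE 0.16, limma adjusted p = 0.239). The groups did not overlap, but 3 of the 4 EV values lay below the negative control level, so the size of the difference is uncertain. P4HB, the partner subunit of P4HA1 and P4HA2, was also higher in every BORA tumour, at 14.77, 14.88, 14.98 and 14.50 in BORA replicates 1 to 4, against 14.39, 14.37, 14.36 and 14.15 in EV replicates 1 to 4 (difference 0.46, SE 0.15, limma adjusted p = 0.241). TKT, an enzyme of the pentose phosphate branch, was at 12.56, 12.76, 12.56 and 12.67 in BORA replicates 1 to 4, against 11.19, 12.40, 12.03 and 12.14 in EV replicates 1 to 4, again without overlap (difference 0.70, SE 0.24, limma adjusted p = 0.268). PFKM, the muscle phosphofructokinase, was lower in every BORA tumour, at 8.58, 8.27, 8.33 and 8.36 in BORA replicates 1 to 4, against 8.66, 9.51, 8.70 and 9.33 in EV replicates 1 to 4 (difference -0.66, SE 0.22, limma adjusted p = 0.243). BORA replicate 1 did not stand out in these 4 genes, lying between -0.10 and 0.26 from the mean of BORA replicates 2 to 4.

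VEGFA, the main HIF-induced vascular growth factor, had signals of 12.98, 16.10, 16.00 and 15.58 in BORA replicates 1 to 4, against 16.44, 16.06, 16.14 and 15.19 in EV replicates 1 to 4. BORA replicate 1 was 7.55-fold below the mean of BORA replicates 2 to 4 and below every EV tumour, and the remaining tumours overlapped (difference -0.80, SE 0.63, limma adjusted p = 0.581, and -0.07 without BORA replicate 1). Of the 41 genes, 7 lay more than 1 log2 unit below the mean of BORA replicates 2 to 4 in BORA replicate 1. The same gap was found at 0.977% of all clusters and 1.75% of the brighter class. Averaged over the 15 measured genes of other hypoxia-induced functions, BORA replicate 1 lay at -0.77 from the gene means. Averaged over the 15 other glycolytic isoforms and branch enzymes it lay at -0.058, and over the 5 genes of the pyruvate dehydrogenase gate at 0.37.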

How the data were processed

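RNA of 8 tumours (4 BORA, 4 EV) was measured on 1 array each, grouped and numbered by the sample labels. The deposited table of 24351 rows was taken as log2 signals from its range, since no source states the log base; folds hold on that reading. Per the submitters' processing notes the authors used Affymetrix Expression Console; the sources used here give no version, normalization or build. The design text gives Human Gene 1.0 ST as the array, but the rows carry identifiers of another Affymetrix human design. Any pair of arrays shared at most 0.0113% identical values. The number of arrays limits the precision.

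All 17709 named clusters, matched by gene ID to GRCh38.p14 symbols, were fitted together with limma (lmFit, eBayes) as BORA minus EV without covariates or filter. P-values were adjusted by Benjamini-Hochberg over all clusters, at a threshold of 0.05. The negative control level is the 95th percentile of 612 negative control rows of an array, averaged over a group's arrays where a group is meant. The genes, lists and rule for named genes (up to 3 per role with the smallest p, SLC2A1, LDHA, HIF1A and EPAS1, and any past the threshold; of other pathway genes the 4 with the smallest p and VEGFA) were chosen with earlier results of these data known. ADM, EGLN3, HK2, PFKFB3, DDIT4, P4HA1, GAPDH and any other gene named outside the rule were added after their values were seen.

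On simulated data with 17709 clusters and 8 arrays, limma recovered 40.3% of changes of 1 log2 unit, 97% of 2 and 98.5% of 4. The simulated noise was independent, followed the variances of all clusters and held no tumour that departed from its group. The median SD within BORA tumours was 0.56 for the listed genes and 0.24 for all clusters. These shares therefore do not carry over to the genes that varied most. R 4.3.3 and limma 3.58.1 were used. The alternatives tried were a replicate block, 2 normalizations, a variance trend, array weights, 2 filters on dim clusters, averaging clusters and leaving out arrays.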

Additional observations from a re-analysis of the deposited data

Results flagged for a closer look

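In 14 of the 84 sets of 4 tumours tested (42 genes in 2 groups), 1 tumour lay so far from the nearest other that the gap took up most of the range of its group (past Dixon's 95% critical value). Chance gives about 1 in 20 sets, and neighbouring genes of 1 pathway are not independent. The share of all clusters past the same critical value was not counted, so these 14 sets are given as a description. BORA replicate 1 was the low tumour in 10 of the 14. Its log2 signal was 14.76 for SLC2A1, 6.47 for HK2, 9.52 for PFKFB3, 14.11 for CA12 and 11.43 for BNIP3. It was 13.82 for BNIP3L, 11.64 for DDIT4, 11.39 for NDRG1, 9.65 for ADM and 11.07 for P4HA1. EV replicate 1 was the high tumour in 3 sets, at 11.95 for PGM1, 16.62 for CA12 and 9.98 for ANKZF1. EV replicate 4 was the low tumour for ALDOA, at 16.81. CA12 is the gene set apart in both groups, low in BORA replicate 1 and high in EV replicate 1.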

How the results depend on the processing

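Over 8 tumours, without EV replicate 1 and without BORA replicate 1, the counts of risen and fallen genes stayed at 0 for the list and for the other pathway genes under all alternatives run. The smallest adjusted p of any gene of the list under any alternative to the 8-tumour comparison was 0.0620 (limma), without both EV replicate 1 and BORA replicate 1. The median log2 difference of the list over 8 tumours was 0.0060 after quantile normalization, 0.032 after centring and between -0.044 and 0.37 when 1 tumour was left out. The SD of the list's mean between tumours of a group was 0.48 over 8 tumours and 0.22 without BORA replicate 1. That tumour was set aside with its low values known, so the smaller SD and the median of 0.37 both follow from the choice. The 0.37 therefore cannot be judged against the 0.22. No pairing by replicate number was detected. Same-numbered BORA and EV arrays had deviations that correlated at -0.11 to 0.071, and 1 of 8 arrays correlated best with its own number. With 4 arrays in each group, a weak pairing could go unseen. The replicate block left 0 rises and 0 falls and the median at 0.086. Of 709 values of single genes under alternatives, 634 kept their sign and 75 turned, in 24 genes, while 0 passed the threshold. After quantile normalization, EGLN1 at -0.098, HK1 at -0.030, PGM1 at -0.050, PFKP at -0.032, ALDOA at -0.053, ENO1 at 0.018, DDIT4 at -0.094 and INSIG2 at -0.050 had the opposite sign to the value over 8 tumours. After centring each array on its median, EGLN1 at -0.038, PFKP at -0.019, ALDOA at -0.0047 and DDIT4 at -0.048 had the opposite sign to the value over 8 tumours. With array quality weights, SLC2A1 at 0.11, ENO1 at 0.016, BNIP3L at 0.067 and DDIT4 at -0.14 had the opposite sign to the value over 8 tumours. Leaving out 1 tumour, or EV replicate 1 and BORA replicate 1 together, turned the sign of 24 genes, whose differences then ran as follows: EGLN1 from -0.17 to 0.41, EGLN3 from -0.30 to 1.51, SLC2A1 from -0.28 to 0.69, HK1 from -0.045 to 0.42, HK2 from -0.47 to 0.73, PGM1 from -0.052 to 0.14, PFKP from -0.079 to 0.29, PFKFB3 from -0.11 to 0.76, ALDOA from -0.12 to 0.20, PGK1 from -0.067 to 0.57, ENO1 from -0.21 to 0.12, LDHA from -0.16 to 0.047, PDK1 from -0.30 to 0.30, CA12 from -0.75 to 0.081, BNIP3L from -0.17 to 0.50, DDIT4 from -0.23 to 0.58, NDRG1 from -0.98 to 0.79, ADM from -0.18 to 1.26, P4HA1 from -0.42 to 0.50, P4HA2 from -0.92 to 0.14, LOX from -0.14 to 0.94, KDM3A from -0.39 to 0.25, ERO1A from -0.57 to 0.18 and INSIG2 from -0.14 to 0.46. Of the 42 genes, 36 lay above the negative control level in all tumours. Dim signals limit SLC2A3 and ENO2 in all tumours, STC2 in all but BORA replicate 3 and EV replicate 3, ANKRD37 in BORA replicate 1 and EV replicate 1, HK2 in BORA replicate 1 and EV replicate 4, and PDK3 in EV replicate 1.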

Other observations

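Among the other pathway genes, 3 outside the rule for named genes were picked after their values were seen, because EV replicate 1 lay far from the rest. TMEM45A, a membrane protein gene often induced by low oxygen, was at 6.74, 7.58, 7.33 and 8.11 in BORA replicates 1 to 4, against 13.96, 7.82, 6.82 and 6.91 in EV replicates 1 to 4, so that 1 tumour held a level far above the other 7, which lay below the negative control level. LDHB, the lactate dehydrogenase subunit that favours pyruvate, was at 14.36, 13.65, 14.47 and 13.78 in BORA replicates 1 to 4, against 11.23, 13.48, 13.64 and 14.73 in EV replicates 1 to 4, lowest in the same tumour. PGM2, a phosphopentomutase gene, was at 9.13, 9.22, 8.93 and 8.79 in BORA replicates 1 to 4, against 10.74, 9.29, 9.14 and 9.17 in EV replicates 1 to 4, highest there. Their differences between groups did not pass the threshold in limma (adjusted p = 0.645 for TMEM45A, 0.570 for LDHB and 0.465 for PGM2).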
